A study of Saccharomyces cerevisiae with 15 samples.

Results

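The genes described here are 46 of the cytosolic ribosomal protein (RP) genes of budding yeast (Saccharomyces cerevisiae). They form 23 pairs of near-identical copies, A and B, that encode proteins of the large ribosomal subunit. Each gene was followed through the intergenic array probe that its 5′ end faces, taking a probe named after a reading frame as the region on the higher-coordinate side of that frame. By this rule 45 of the 46 genes had a probe, and they are represented by 46 of the 6803 probes of the array, since RPL43B is faced by 2. RPL26A had none, because a tRNA gene splits the region before it, so 22 pairs could be compared copy against copy. The probe of 26 of the 45 genes is also faced by the 5′ end of a second, divergent gene, and 19 genes do not share theirs.

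Ribosomal proteins are made in equal amounts and in great quantity in growing cells, and their promoters are among the most active of the yeast genome. Fhl1 is a forkhead protein that sits on RP promoters together with Rap1. Ifh1 is the coactivator that binds Fhl1 through its forkhead-associated domain, and in yeast it is known to leave RP promoters when the TOR kinases are inhibited, while Fhl1 stays.

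The study measured where both proteins lie by chromatin immunoprecipitation read on spotted two-colour arrays (ChIP-chip). The tagged strains were W303 with FHL1-13myc-HIS3MX6 or with IFH1-13myc-TRP1MX6, each set against a precipitate of untagged W303 on the same array. Cells grew in log phase in YPD at 30 °C, with no drug or with 200 ng/mL rapamycin, an inhibitor of TOR. There were 3 arrays of Fhl1 untreated, 5 of Fhl1 rapamycin, 4 of Ifh1 untreated and 3 of Ifh1 rapamycin, which the labels call biological replicates. The sources used here do not say whether the untagged reference of the rapamycin arrays was treated.

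Each value below is a deposited log2 ratio of the 2 channels, less the median of its array. The labels mention a dye swap in every condition without naming the array, so each array was turned until the median of 88 promoter probes of the other RP genes was positive. Those medians were 0.74 to 1.50 on the 12 arrays outside Ifh1 rapamycin, and 0.03 to 0.10 on the 3 Ifh1 rapamycin arrays, whose side is therefore not settled. A positive value means the side on which the other RP promoters lie, likely more DNA from the tagged strain. If the ratios run the other way, every sign turns together. Before turning, array-to-array correlation over all probes within a group lay between -0.18 and 0.15. Turning an array can change the sign of such a correlation but not its size. Over all probes the turned replicates of a group therefore agreed weakly at best. The small number of arrays limits the precision of every value.

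The promoters of the duplicated large-subunit genes stood on the same side as the other RP promoters with Fhl1 in both conditions and with Ifh1 in untreated cells, and near the array median with Ifh1 under rapamycin. Over the 46 probes the median per array was 1.57, 1.23 and 0.69 for Fhl1 untreated. It was 1.72, 1.27, 0.78, 0.93 and 0.64 for Fhl1 rapamycin, and 1.07, 0.87, 0.93 and 1.01 for Ifh1 untreated. The 3 Ifh1 rapamycin arrays gave 0.01, 0.01 and 0.08, below every array of the other groups. As means these are 1.16 ± 0.44 (SD, n = 3), 1.07 ± 0.43 (n = 5), 0.97 ± 0.09 (n = 4) and 0.04 ± 0.04 (n = 3). Both Fhl1 groups spread widely between arrays and overlap each other and the Ifh1 untreated group.

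Regions at the other end of the same genes gave a measure from the same chromatin that the rule does not use. The 3′ flanks of the 46 genes, none of them faced by the 5′ end of an RP gene, had array medians between -0.08 and 0.24 on the 12 arrays of the Fhl1 untreated, Fhl1 rapamycin and Ifh1 untreated groups. On those arrays the promoter probe was above the 3′ flank of the same gene for 32 to 43 of 45 genes. On the 3 Ifh1 rapamycin arrays it was above for 21 to 23 of 45. None of the 46 flanks, and none of the 5 intron probes of these genes (RPL19A, RPL23A, RPL27A, RPL33A and RPL35A), was called in the limma test of the mean of these 3 groups given below, which called 1.41% of all probes higher. The RPL35A intron came nearest, with a 12-array mean of 0.69 ± 0.51 (SD, n = 12) and a limma adjusted p of 0.11. The median of the 5 introns ran higher than that of the flanks on most of the 12 arrays, from -0.14 to 0.90. The 0.90 was on Ifh1 untreated replicate 2, where the promoter median was 0.87.

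**Figure D1:**
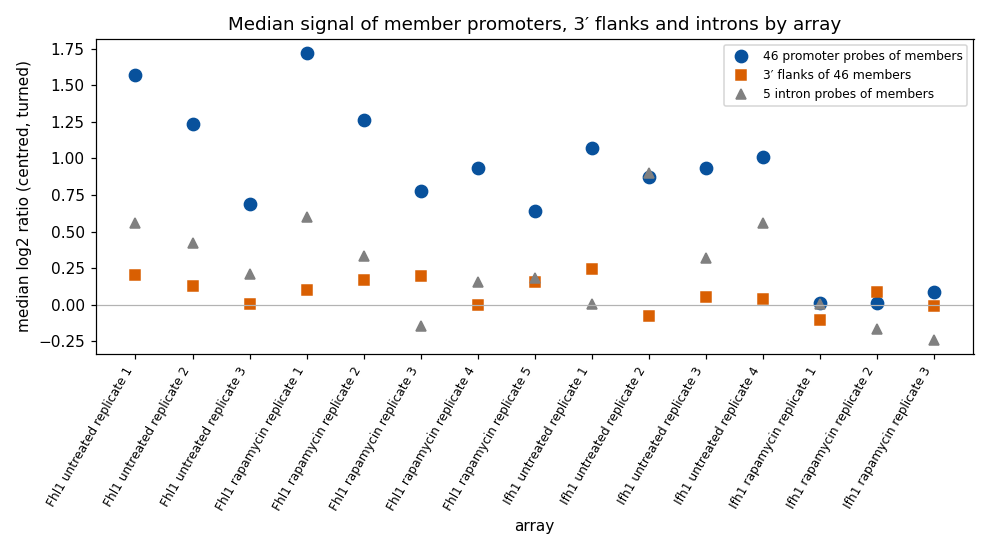
Median log2 ratio (y axis, centred and turned) on each of the 15 arrays (x axis) over the 46 promoter probes (circles), the 3′ flanks of the 46 genes (squares) and 5 intron probes (triangles). The circles lie between 0.64 and 1.72 on the 12 arrays outside Ifh1 rapamycin and at or below 0.08 on the other 3, where they meet the squares.

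Probes were tested with limma, a linear model with moderated variances, fitted to all 15 arrays, with Benjamini-Hochberg adjustment over the 6803 probes and a call at an adjusted p under 0.05. With Fhl1 untreated, 15 of the 46 member probes were called higher, against 0.632% of all probes. With Fhl1 under rapamycin, 21 of 46 were called higher, against 0.926% of all probes. With Ifh1 untreated, 10 of 46 were called higher, against 0.353% of all probes. With Ifh1 under rapamycin no probe of the array was called (0% of all probes). As turned here, 1 of the 46 had an unadjusted p under 0.05 on the higher side (RPL31B, against 2.66% of all probes) and 1 on the lower (RPL7A, against 2.6%). The members' median estimates were 1.20, 1.06, 1.03 and 0.07 in the same order, while the median over all probes was between -0.02 and 0.01.

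These counts rest on few arrays. Without Fhl1 untreated replicate 1 or 2 the Fhl1 untreated count fell to 2 or 4. Without Fhl1 rapamycin replicate 1 the Fhl1 rapamycin count was 13. The Ifh1 untreated count was 2, 2, 3 or 1 without its replicate 1, 2, 3 or 4, and 5 without Fhl1 rapamycin replicate 2. Without centring 0 members were called in each of these groups, and with only its own arrays in the fit 0 were called for Fhl1 untreated and for Ifh1 untreated. On the unweighted mean of the Fhl1 untreated, Fhl1 rapamycin and Ifh1 untreated groups, called the mean of 3 groups here, 32 of the 46 probes were called higher, against 1.41% of all probes, and 30 to 33 when any array was left out. Above the array median on all 12 arrays were 33 of the 46, against 1.22% of all probes.

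Over the 3 groups, 24 of 45 genes were called in at least 1 group, against 1.01% of all probes, and 7 in all 3, against 0.279% of all probes: RPL17A, RPL20B, RPL21A, RPL27A, RPL31A, RPL31B and RPL33B. Of the 15 genes called with Fhl1 untreated, 14 were also called with Fhl1 rapamycin, which is 93.3% of the first list and 66.7% of the second. Fhl1 untreated and Ifh1 untreated had 7 called genes in common, 46.7% of the Fhl1 list and 70.0% of the Ifh1 list. RPL17B and RPL35A were called with Ifh1 untreated and in neither Fhl1 group, with Fhl1 untreated means of 1.21 ± 0.46 and 1.70 ± 0.50 (SD, n = 3). The gene means of the 45 genes correlated between the groups at r = 0.81 for Fhl1 untreated and rapamycin and r = 0.79 for Fhl1 and Ifh1 untreated. Against Ifh1 rapamycin as turned here the 3 other groups gave r = 0.25, 0.41 and 0.16. The sign and size of these values change with the side of the Ifh1 rapamycin arrays, which is not settled. These are descriptions over 45 genes read on the same probes, and the sources used here do not say whether arrays shared a reference preparation.

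**Figure D2:**
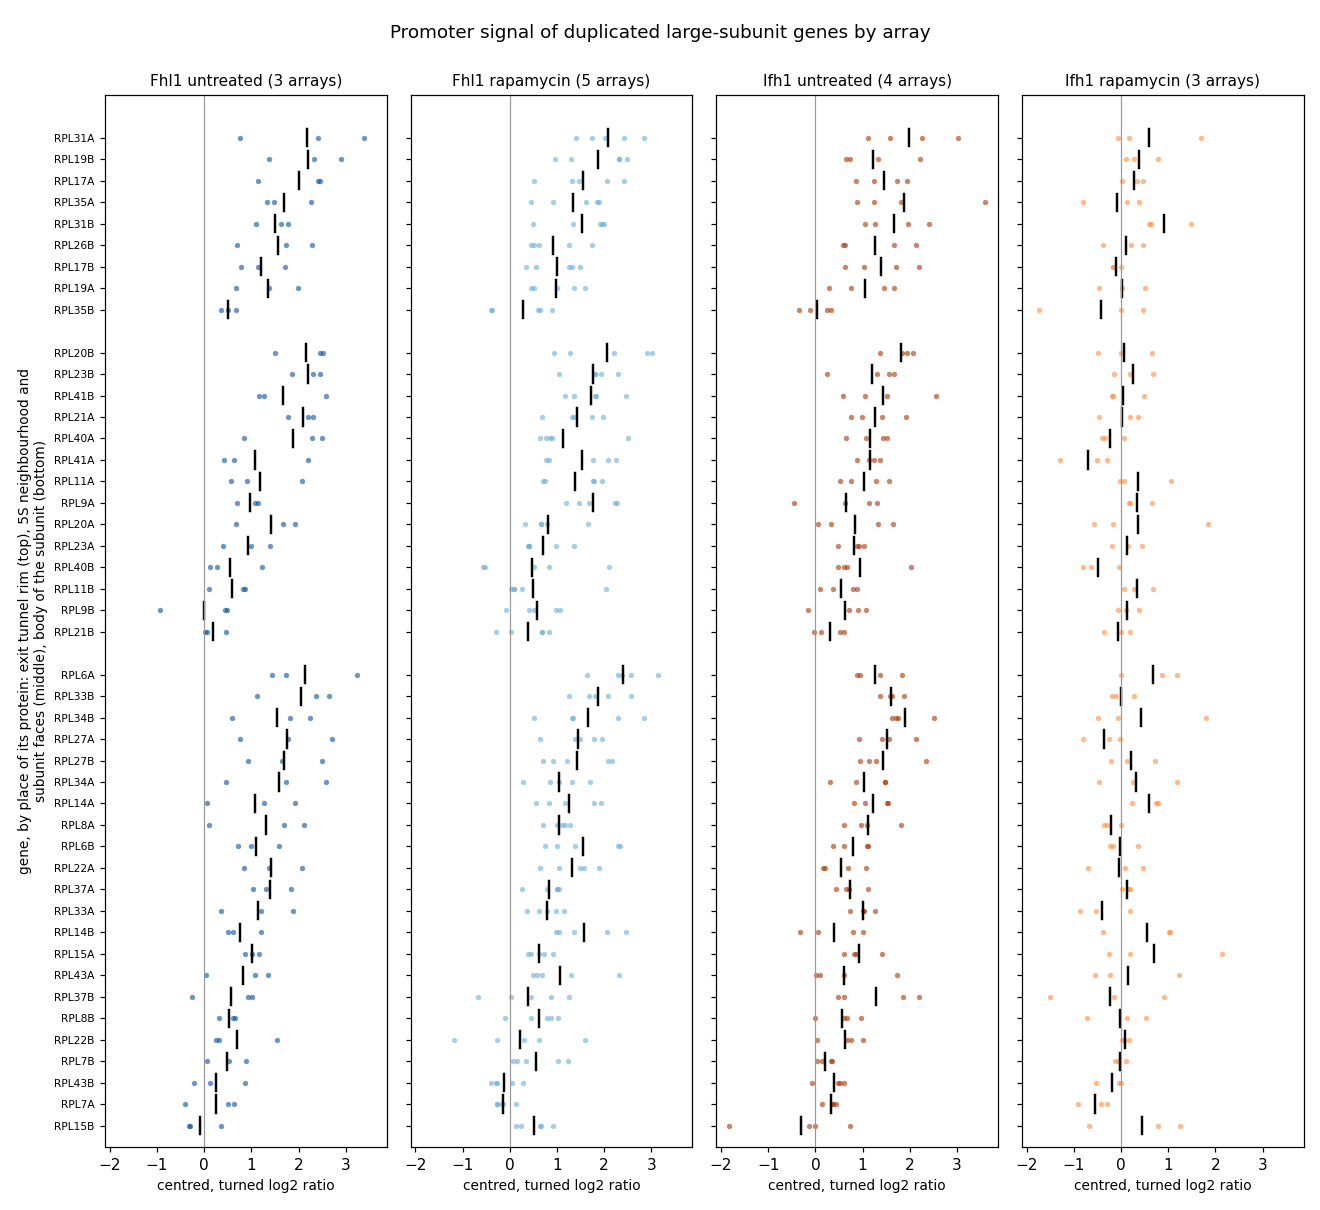
Centred, turned log2 ratio (x axis) of the promoter of each of 45 genes (y axis, grouped by the place of the protein in the subunit and ordered by the mean of 3 groups), with 1 panel per group, 1 dot per array and a bar at the group mean. Means run from RPL31A, at 2.09 over the 3 groups, down to RPL15B, at 0.04, and gather around 0 in the Ifh1 rapamycin panel.

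The proteins at the rim of the peptide exit tunnel, where the growing chain leaves the ribosome and chaperones and the signal recognition particle dock, are RPL17, RPL19, RPL26, RPL31 and RPL35. Of their 9 genes with a probe, 8 were called on the mean of 3 groups, against 1.41% of all probes. The median of the 9 was 1.57. RPL31A had the highest value of all 45 genes. It read 2.42, 3.39 and 0.75 on the 3 Fhl1 untreated arrays, 2.02, 2.42, 2.85, 1.74 and 1.41 on the 5 Fhl1 rapamycin arrays and 1.11, 3.03, 2.25 and 1.58 on the 4 Ifh1 untreated arrays. The ranges of the 3 groups overlap, and each of the 12 values was above 0. Its mean of 3 groups was 2.09 (SE 0.23, limma adjusted p = 2.57e-05). Its copy RPL31B read 1.62, 1.11 and 1.78 for Fhl1 untreated and had means of 1.54 ± 0.64 (SD, n = 5) for Fhl1 rapamycin and 1.68 ± 0.62 (n = 4) for Ifh1 untreated. RPL31B was also the member with the highest Ifh1 rapamycin mean, 0.90 ± 0.51 (n = 3), with all 3 arrays between 0.58 and 1.49 as turned here.

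RPL17 lines the narrow part of the tunnel. RPL17A read 2.40, 2.46 and 1.14 for Fhl1 untreated, 2.06, 1.46, 0.51, 2.42 and 1.31 for Fhl1 rapamycin and 1.73, 0.87, 1.94 and 1.24 for Ifh1 untreated, again above 0 on 12 of 12 arrays. Its mean of 3 groups was 1.67 (SE 0.18, limma adjusted p = 1.36e-05). RPL19B gave 2.33, 2.91 and 1.37 for Fhl1 untreated and 2.49, 2.32, 0.95, 2.31 and 1.30 for Fhl1 rapamycin. With Ifh1 untreated RPL19B read 2.21, 0.65, 1.32 and 0.74, lower on 3 of 4 arrays than any Fhl1 untreated array, and its mean of 3 groups was 1.77 (SE 0.19, limma adjusted p = 1.39e-05). RPL26B, read alone because its copy has no probe, had a mean of 3 groups of 1.25 and was above 0 on 12 of 12 arrays.

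RPL35, which the signal recognition particle and other nascent-chain factors touch, had the widest gap between copies of the 22 pairs. RPL35A read 2.27, 1.34 and 1.48 for Fhl1 untreated, 1.85, 1.88, 0.92, 1.63 and 0.44 for Fhl1 rapamycin and 1.24, 3.60, 0.87 and 1.82 for Ifh1 untreated. RPL35B read 0.36, 0.50 and 0.68 for Fhl1 untreated, 0.64, 0.91, -0.37, -0.41 and 0.59 for Fhl1 rapamycin and 0.33, -0.36, 0.25 and -0.11 for Ifh1 untreated. The A copy was above the B copy on 11 of 12 arrays, and in the untreated groups no array of RPL35B reached the lowest of RPL35A. The difference was 1.36 ± 1.03 (SD, n = 12), and it was 3.95 on Ifh1 untreated replicate 2. RPL35A was called on the mean of 3 groups (1.64, SE 0.22, limma adjusted p = 0.000155), and RPL35B was the exit-tunnel gene that was not (0.27, SE 0.18, limma adjusted p = 0.86).

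The next group holds the proteins of the 5S rRNA neighbourhood and of the faces that meet the small subunit or the elongation factors: RPL9, RPL11, RPL20, RPL21, RPL23, RPL40 and RPL41. Of their 14 genes, 10 were called on the mean of 3 groups, against 1.41% of all probes, and the median was 1.17. RPL21, near the central protuberance, was the pair in which A was higher on 12 of 12 arrays. RPL21A read 2.31, 2.19 and 1.77 for Fhl1 untreated, 1.75, 1.98, 1.33, 0.69 and 1.36 for Fhl1 rapamycin and 1.41, 1.91, 1.00 and 0.76 for Ifh1 untreated. RPL21B read 0.47, 0.01 and 0.05 for Fhl1 untreated, 0.67, 0.84, -0.30, 0.69 and 0.03 for Fhl1 rapamycin and 0.12, 0.52, -0.02 and 0.61 for Ifh1 untreated. The copies do not overlap in either untreated group. Their ranges overlap with Fhl1 rapamycin, where on replicate 4 they differed by 0.0049. RPL21A had a mean of 3 groups of 1.59 (SE 0.14, limma adjusted p = 2.8e-06) and RPL21B of 0.29 (SE 0.13, limma adjusted p = 0.62).

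In RPL20 and RPL23 the B copy was higher. RPL20 contacts rRNA near the 5S particle, and RPL20B read 2.45, 2.52 and 1.50 for Fhl1 untreated, 2.90, 1.28, 2.21, 3.01 and 0.94 for Fhl1 rapamycin and 2.07, 1.84, 1.95 and 1.37 for Ifh1 untreated. RPL20A read 1.93, 1.67 and 0.67 for Fhl1 untreated, 0.79, 1.66, 0.33, 0.66 and 0.65 for Fhl1 rapamycin and 0.05, 1.65, 0.33 and 1.34 for Ifh1 untreated. The groups of the copies overlap, yet B was above A on 11 of 12 arrays, by 1.03 ± 0.93 (SD, n = 12). Both copies were called on the mean of 3 groups, RPL20B at 2.01 (SE 0.19, limma adjusted p = 3.79e-06) and RPL20A at 1.03 (SE 0.21, limma adjusted p = 0.0145).

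RPL23 lies on the face that joins the small subunit. RPL23B read 2.30, 1.86 and 2.46 for Fhl1 untreated, 1.80, 1.94, 1.04, 2.29 and 1.80 for Fhl1 rapamycin and 1.30, 0.25, 1.67 and 1.57 for Ifh1 untreated. RPL23A read 1.40, 0.99 and 0.41 for Fhl1 untreated, 1.37, 0.41, 0.41, 0.98 and 0.38 for Fhl1 rapamycin and 0.48, 0.87, 0.92 and 1.02 for Ifh1 untreated. The copies are separate in Fhl1 untreated, where every RPL23B value exceeds every RPL23A value. They overlap in the other groups, and B was higher on 11 of 12 arrays, by 0.89 ± 0.67 (SD, n = 12). Both were called on the mean of 3 groups, RPL23B at 1.73 (SE 0.15, limma adjusted p = 2.04e-06) and RPL23A at 0.82 (SE 0.13, limma adjusted p = 0.00116).

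RPL40 is made as a fusion with ubiquitin, and RPL41 is a very short peptide that bridges the subunits. RPL40A was called with a mean of 3 groups of 1.39 (SE 0.18, limma adjusted p = 0.000135), while RPL40B was at 0.65 and spread from -0.58 to 2.11 over the 12 arrays. The probes of both RPL40 copies are shared with genes of nuclear pore basket proteins, MLP2 and MLP1. RPL41B and RPL41A were both called, at 1.61 and 1.26. RPL11, which carries the 5S particle with its partner protein, had RPL11A at 1.20 and RPL11B at 0.54. RPL9A, beside the site of the elongation factors, read 1.14, 0.69 and 1.08 for Fhl1 untreated, 1.68, 2.24, 1.19, 2.27 and 1.46 for Fhl1 rapamycin and 1.13, -0.45, 0.63 and 1.31 for Ifh1 untreated. Every Fhl1 rapamycin value of RPL9A was above every Fhl1 untreated value, a difference of 0.80 (SE 0.39) that did not pass (limma adjusted p = 1.00, unadjusted p = 0.059). RPL9B, whose probe is shared with the forkhead gene FKH2, was at 0.40 (SE 0.16, limma adjusted p = 0.52).

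The remaining 22 genes encode proteins of the body of the subunit: RPL6, RPL7, RPL8, RPL14, RPL15, RPL22, RPL27, RPL33, RPL34, RPL37 and RPL43. On the mean of 3 groups 14 of the 22 were called, against 1.41% of all probes, and the median of the 22 was 0.98. With Fhl1 untreated the calls were 4 of 9 exit-tunnel genes, 5 of 14 of the 5S and faces group and 6 of 22 here. In the same order they were 4, 7 and 10 with Fhl1 rapamycin and 5, 2 and 3 with Ifh1 untreated. Whether the places of the proteins differ was not tested. RPL6A, whose protein binds rRNA on the solvent side, read 3.24, 1.72 and 1.44 for Fhl1 untreated, 3.14, 2.57, 2.37, 2.29 and 1.63 for Fhl1 rapamycin and 0.88, 1.84, 0.95 and 1.37 for Ifh1 untreated. Of the 5 Fhl1 rapamycin values of RPL6A, 4 exceed each of its Ifh1 untreated values, and its mean of 3 groups was 1.93 (SE 0.18, limma adjusted p = 3.15e-06). RPL34B gave 1.82, 2.25 and 0.59 for Fhl1 untreated, 2.85, 1.33, 1.32, 2.28 and 0.51 for Fhl1 rapamycin and 2.52, 1.76, 1.70 and 1.62 for Ifh1 untreated. Its lowest Ifh1 value is thus above 3 of the 5 Fhl1 rapamycin values, and its mean of 3 groups was 1.70 (SE 0.23, limma adjusted p = 0.000177).

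RPL33 was the pair in which B was higher on 12 of 12 arrays. RPL33B read 2.38, 2.65 and 1.12 for Fhl1 untreated, 2.57, 2.08, 1.80, 1.68 and 1.26 for Fhl1 rapamycin and 1.59, 1.37, 1.62 and 1.87 for Ifh1 untreated. RPL33A read 1.20, 1.89 and 0.36 for Fhl1 untreated, 0.36, 1.16, 0.63, 0.79 and 0.97 for Fhl1 rapamycin and 1.03, 1.25, 1.01 and 0.73 for Ifh1 untreated. The copies do not overlap in the Fhl1 rapamycin and Ifh1 untreated groups, and overlap in Fhl1 untreated. B exceeded A by 0.88 (SD 0.54, n = 12), with a mean A minus B of -0.88. RPL33B had the lowest p of all members on the mean of 3 groups (1.85, SE 0.15, limma adjusted p = 1.00e-06), and RPL33A was called too (0.98, SE 0.15, limma adjusted p = 0.000413).

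RPL27 was the pair whose copies lay closest. RPL27A read 2.71, 1.78 and 0.75 for Fhl1 untreated, 1.96, 1.38, 1.48, 1.79 and 0.64 for Fhl1 rapamycin and 1.40, 0.93, 2.13 and 1.57 for Ifh1 untreated. RPL27B read 2.49, 1.66 and 0.93 for Fhl1 untreated, 2.08, 2.16, 1.21, 0.71 and 0.92 for Fhl1 rapamycin and 1.14, 0.95, 2.34 and 1.29 for Ifh1 untreated. The copies overlap in each group, with A above B on 6 of 12 arrays and a mean difference of 0.05 ± 0.45 (SD, n = 12). Both fell from Fhl1 untreated replicate 1 to 3, as did the median of the 46 member probes, at 1.57, 1.23 and 0.69. Both were called on the mean of 3 groups, at 1.57 (SE 0.17, limma adjusted p = 2.4e-05) and 1.51 (SE 0.18, limma adjusted p = 5.13e-05). RPL37, a zinc-binding protein, and RPL14 had mean A minus B differences of 0.20 ± 0.99 and 0.22 ± 0.97 (SD, n = 12), small means with wide spreads. In both pairs the groups lay on opposite sides. RPL37 had 0.84 ± 1.10 (SD, n = 3) for Fhl1 untreated, 0.43 ± 0.87 (n = 5) for Fhl1 rapamycin and -0.56 ± 0.73 (n = 4) for Ifh1 untreated. In the same order RPL14 had 0.32 ± 1.01, -0.33 ± 0.78 and 0.84 ± 0.96. On the mean of 3 groups RPL14A was at 1.19 (SE 0.17, limma adjusted p = 0.000303) and RPL14B at 0.91 (SE 0.18, limma adjusted p = 0.0089), while RPL37A was at 0.98 (SE 0.12, limma adjusted p = 6.19e-05) and RPL37B, not called, at 0.74 (SE 0.23, limma adjusted p = 0.23). RPL37A has a second probe farther from the gene, not counted among the 46, which averaged 0.02 ± 0.41 (SD, n = 3) with Fhl1 untreated, against 1.40 ± 0.40 for the probe beside the gene.

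The 8 lowest probes on the mean of 3 groups belong to 7 genes: RPL7B, RPL9B, RPL21B, RPL35B, RPL7A, RPL15B and both probes of RPL43B. None of these 8 probes was called in any of the 4 groups. RPL7 was the pair in which both copies were low. RPL7A read 0.63, 0.50 and -0.40 for Fhl1 untreated, -0.27, -0.27, -0.15, 0.14 and -0.17 for Fhl1 rapamycin and 0.45, 0.34, 0.38 and 0.14 for Ifh1 untreated. RPL7B was above 0 on 12 of 12 arrays but between 0.03 and 1.23, and the means of 3 groups were 0.14 (SE 0.12, limma adjusted p = 0.90) and 0.42 (SE 0.13, limma adjusted p = 0.23). RPL15, which binds deep in the rRNA core, had RPL15A at 0.85 and RPL15B at 0.04 (SE 0.21, limma adjusted p = 1.0). RPL15B read 0.36, -0.33 and -0.30 for Fhl1 untreated, 0.24, 0.92, 0.14, 0.66 and 0.64 for Fhl1 rapamycin and -0.14, 0.73, 0.00 and -1.83 for Ifh1 untreated. Its untreated values fall on both sides of 0 with either protein, while its 5 Fhl1 rapamycin values are above 0. The 2 probes of RPL43B, in the region shared with IME1, the inducer of meiosis, had means of 3 groups of -0.00014 and 0.34.

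The members differed among themselves, by about as much as all probes of an array did. Across the 46 probes the SD per array averaged 0.80 ± 0.16 (SD, n = 3) for Fhl1 untreated, 0.76 ± 0.18 (n = 5) for Fhl1 rapamycin, 0.72 ± 0.09 (n = 4) for Ifh1 untreated and 0.60 ± 0.22 (n = 3) for Ifh1 rapamycin. The SD over all probes of an array was 0.50 to 0.88, below that of the members on some arrays and above it on others. The group means of the 45 genes had an SD of 0.65, 0.61 and 0.52 for Fhl1 untreated, Fhl1 rapamycin and Ifh1 untreated. The median SD of a gene over the single arrays of these groups was 0.66, 0.53 and 0.49. That is the spread of single arrays, and the error of a group mean is smaller. High and low genes were partly the same on different arrays of a group. The correlation over 45 genes between arrays of a group averaged 0.51 for Fhl1 untreated (3 array pairs), 0.57 for Fhl1 rapamycin (10 pairs) and 0.38 for Ifh1 untreated (6 pairs). It averaged -0.02 for Ifh1 rapamycin (3 pairs), where the side of each array is not settled.

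The level of one copy told little about the level of the other. Over 22 pairs the correlation of A with B per array was 0.28, 0.06 and -0.17 for Fhl1 untreated, with a mean of 0.06 ± 0.22 (SD, n = 3). It was 0.09, -0.02, -0.01, 0.22 and -0.23 for Fhl1 rapamycin, with a mean of 0.01 ± 0.17 (n = 5), and 0.07, 0.10, 0.18 and 0.20 for Ifh1 untreated, with a mean of 0.14 ± 0.06 (n = 4). The 3 Ifh1 rapamycin arrays gave 0.44, 0.47 and 0.10, with a mean of 0.34 ± 0.21 (n = 3). The 12-array means of A and B correlated at r = 0.18 (Spearman's rho = 0.08). Pairs on an array share its dyes and its chromatin, so these correlations are descriptions with no p. The duplicated small-subunit genes, the most similar set, gave r = -0.10 for the 12-array means of 24 pairs, with a median absolute difference between copies of 0.77 against 0.66 here. That difference between the sets was not tested.

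**Figure D3:**
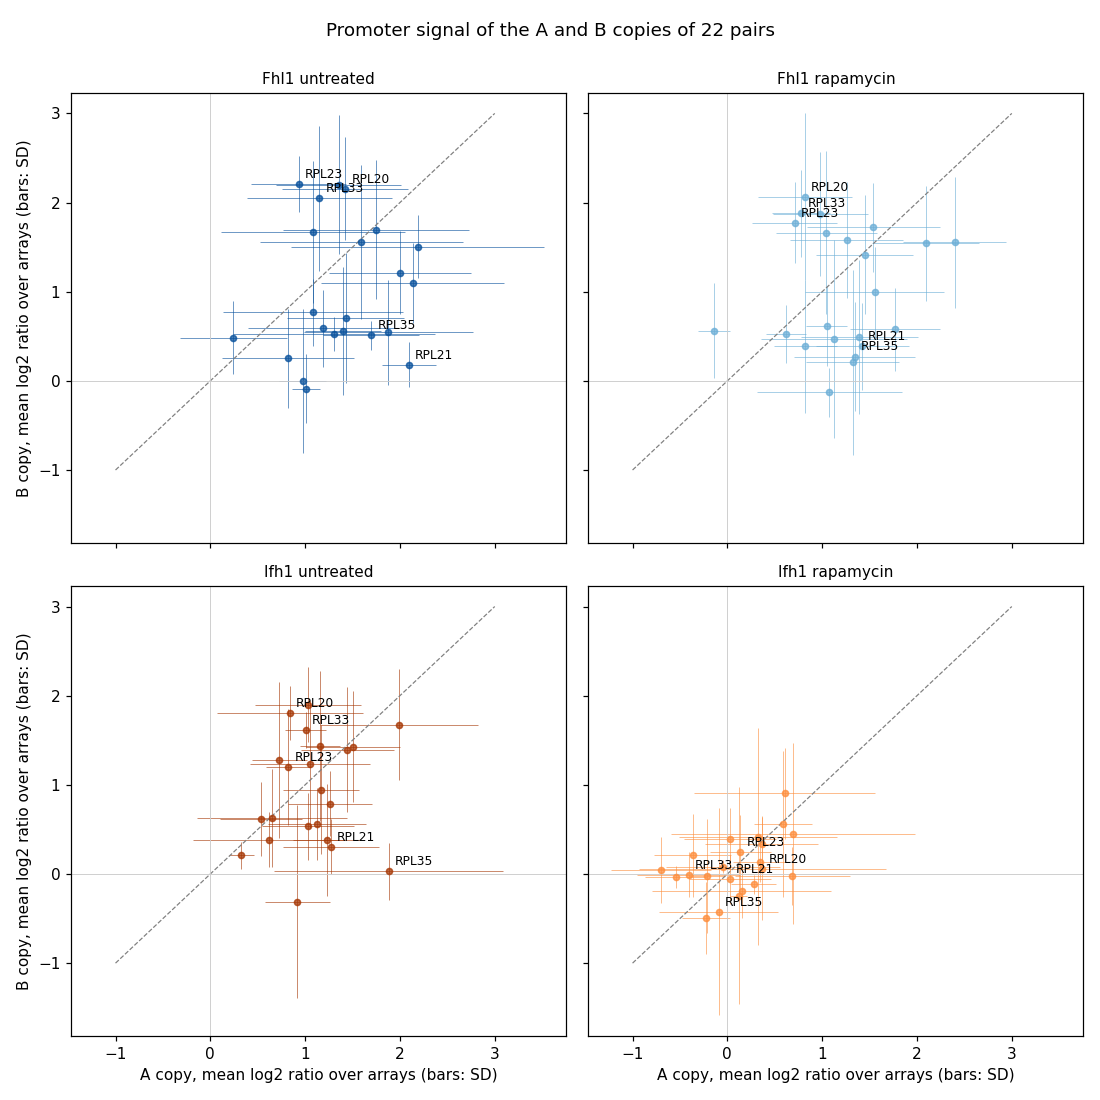
Mean log2 ratio of the B copy (y axis) against that of the A copy (x axis) for 22 pairs, with 1 panel per group, bars of 1 SD over the arrays of the group and a dashed line where A equals B. The 5 pairs with the widest mean difference are named: RPL20, RPL23 and RPL33 lie above the line and RPL21 and RPL35 below it in the 3 groups with signal.

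Copies were set beside members that are not copies of each other. The median absolute difference between A and B was 0.83 ± 0.20 (SD, n = 3) for Fhl1 untreated and 0.80 ± 0.18 (n = 5) for Fhl1 rapamycin. Over the 968 combinations of members that are not copies it was 0.76 ± 0.16 and 0.74 ± 0.21, and the copies were closer on 1 of 3 and 2 of 5 arrays. With Ifh1 untreated the copies were closer on 4 of 4 arrays, at 0.50 ± 0.16 against 0.68 ± 0.11 (n = 4). With Ifh1 rapamycin they were closer on 2 of 3 arrays, at 0.50 ± 0.10 against 0.55 ± 0.21 (n = 3).

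In 15 pairs the A copy had the higher 12-array mean and in 7 the B copy, and in 17 of the 22 the same copy was higher in the means of all 3 groups. The mean difference exceeded its own SD over the 12 arrays, pooled from the 3 groups, in 9 pairs. These were RPL35, RPL21, RPL20, RPL23, RPL33, RPL6, RPL9, RPL11 and RPL8. For RPL9 the difference was 0.98 ± 0.57 (SD, n = 3) with Fhl1 untreated and 1.19 ± 0.49 (n = 5) with Fhl1 rapamycin. With Ifh1 untreated it was 0.02 ± 0.26 (n = 4). In 7 pairs the same copy was higher on at least 11 of 12 arrays. On the mean of 3 groups 11 pairs had both copies called, 9 had A alone, 0 had B alone, and RPL7 and RPL43 had neither. The single groups did not show this split. A alone and B alone were called in 6 and 5 pairs with Fhl1 untreated, 6 and 5 with Fhl1 rapamycin and 3 and 3 with Ifh1 untreated. Among single copies, the mean of 3 groups called 20 of 22 A copies and 12 of 23 B copies, against 1.41% of all probes. Their medians were 1.17 and 0.91. Whether A and B differ as classes was not tested. Of the genes that share a probe with a divergent gene and of those that do not, 17 of 26 and 15 of 19 were called, with medians of 1.17 and 1.13.

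**Figure D4:**
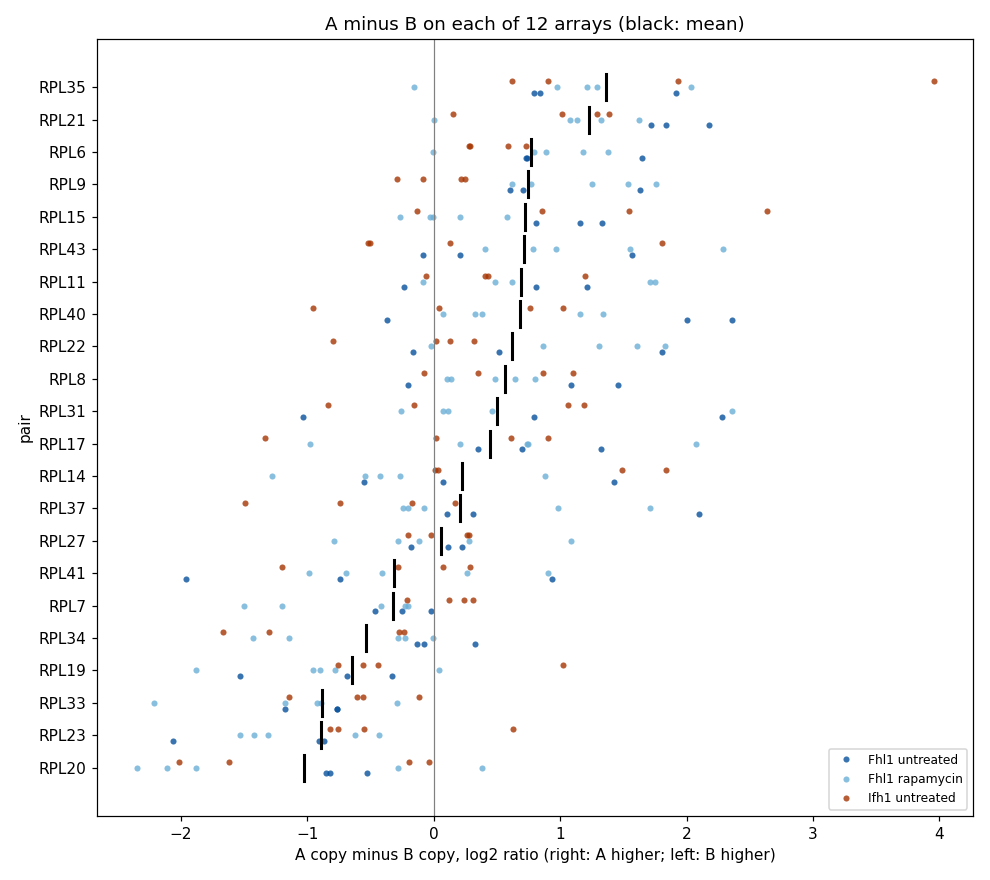
A copy minus B copy in log2 units (x axis) for each of 22 pairs (y axis, ordered by mean), with 1 dot per array for the 12 arrays of the 3 groups with signal and a black bar at the mean. RPL35 lies at 1.36 and RPL21 at 1.23 at the top and RPL20 at -1.03 at the bottom, and most pairs have dots on both sides of 0.

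No change of the Fhl1 signal of these promoters under rapamycin passed the test. Of the 46 probes 30 had a lower and 16 a higher estimate under rapamycin, with a median of -0.20 and a range from -0.75 to 0.81. The limma test called 0 of 46 members, and 0% of all probes, and no member had an unadjusted p under 0.05, against 1.96% of all probes on the higher side and 1.62% on the lower. RPL37A came nearest on the lower side, at -0.58 (SE 0.30, limma adjusted p = 1.00), from 1.32, 1.04 and 1.83 untreated to 1.01, 1.01, 0.79, 1.04 and 0.25 under rapamycin. The groups do not overlap, although the lowest untreated and the highest rapamycin value differ only in the third decimal. RPL21A at -0.67 (SE 0.36) and RPL40A at -0.75 (SE 0.45) were also lower in estimate, and RPL14B was higher at 0.81 (SE 0.45), each with a limma adjusted p of 1.00.

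The Ifh1 signal, with the rapamycin arrays as turned here, was lower under rapamycin in 44 of the 46 estimates. The median was -0.79 against 0.01 over all probes. The limma test called 0 of the 46 members lower, with 0.0147% of all probes called, and 21 of the 46 had an unadjusted p under 0.05, against 3.15% of all probes. On 20 of the 46 probes every Ifh1 rapamycin array was below every Ifh1 untreated array, against 4.68% of all probes, and the count was 20 to 26 over the 8 ways of turning the 3 rapamycin arrays. The values of single genes below hold for the side given to the Ifh1 rapamycin arrays here, which is not settled. Their signs, differences and order by p would change with that side. RPL33B had the lowest p, from 1.59, 1.37, 1.62 and 1.87 untreated to -0.19, -0.11 and 0.28 under rapamycin. The groups do not overlap, and the difference was -1.62 (SE 0.39, limma adjusted p = 0.36, unadjusted p = 0.00065). RPL27A had -0.82, -0.02 and -0.26 under rapamycin, all below its untreated values, with a difference of -1.88 (SE 0.45, limma adjusted p = 0.36). RPL41A read 1.37, 0.88, 1.24 and 1.14 untreated and -1.30, -0.30 and -0.50 under rapamycin, a difference of -1.86 (SE 0.47, limma adjusted p = 0.46). RPL33A and RPL17B completed the 5 lowest p-values, at -1.42 (SE 0.38) and -1.51 (SE 0.41), both with a limma adjusted p of 0.46.

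**Figure D5:**
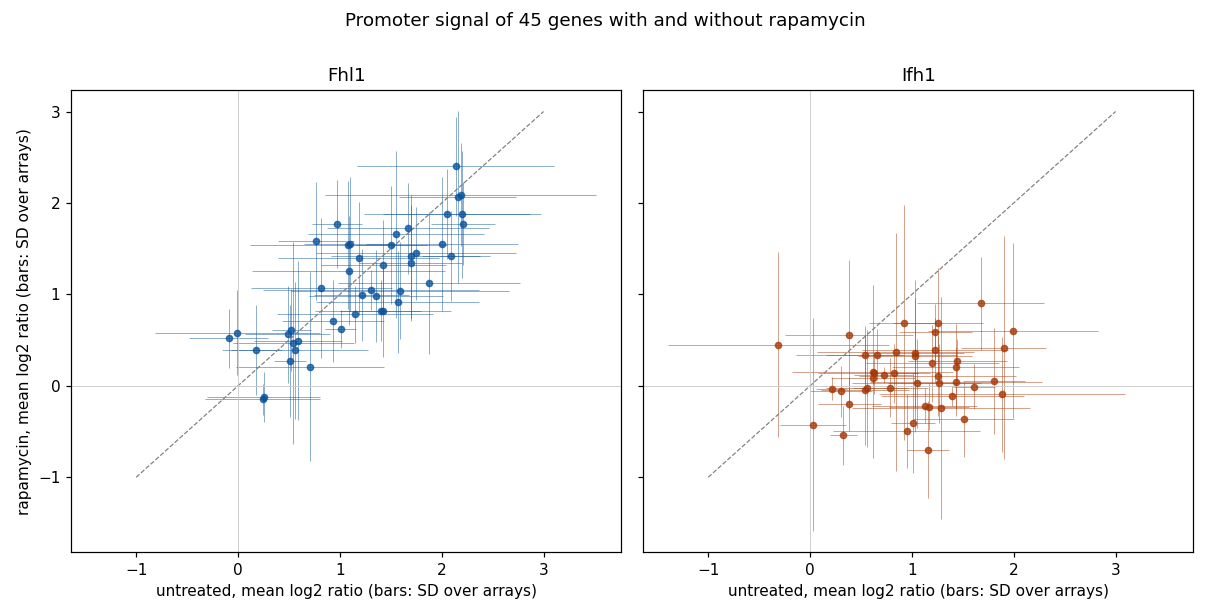
Mean log2 ratio under rapamycin (y axis) against untreated (x axis) for the 45 genes, with Fhl1 on the left and Ifh1 on the right, bars of 1 SD over arrays and a dashed line of equality. The Fhl1 points scatter along the line. The 45 Ifh1 means run from -0.31 to 1.99 untreated and, as turned here, from -0.70 to 0.90 under rapamycin.

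Under rapamycin Ifh1 was below Fhl1 in 45 of 46 estimates, with a median of -0.99. These and the gene values below are for the Ifh1 rapamycin arrays as turned here. No member was called, with 0.0735% of all probes called lower, while 25 of 46 had an unadjusted p under 0.05, against 3.2% of all probes. On 20 of the 46 every Ifh1 array was below every Fhl1 array, against 2.7% of all probes, and on 20 to 25 over the 8 ways of turning. RPL33B had a difference of -1.89 (SE 0.37, limma adjusted p = 0.076), between Fhl1 values of 2.57, 2.08, 1.80, 1.68 and 1.26 and Ifh1 values of -0.19, -0.11 and 0.28. RPL41A had -2.24 (SE 0.45, limma adjusted p = 0.078), from Fhl1 values of 2.08, 2.26, 0.83, 1.76 and 0.77. In both genes the groups do not overlap. RPL20B at -2.01 (SE 0.47, limma adjusted p = 0.19), RPL27A at -1.82 (SE 0.43, limma adjusted p = 0.20) and RPL23B at -1.53 (SE 0.38, limma adjusted p = 0.24) completed the 5 lowest p-values. The call was close to its threshold: 1 to 4 members were called under 5 of the 7 other ways of turning the Ifh1 rapamycin arrays, 2 with array weights and 1 without Fhl1 untreated replicate 1 or 3.

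In untreated cells Ifh1 was below Fhl1 in 32 of 46 estimates, with a median of -0.21. The test called 0 of 46 members and 0% of all probes, and 4 members had an unadjusted p under 0.05, against 2.12% of all probes: RPL23B, RPL21A, RPL22A and RPL37A. RPL23B had the lowest p, at -1.01 (SE 0.39, limma adjusted p = 1.0), and its untreated groups do not overlap. RPL22, a protein that cells can do without, had RPL22A at 1.38, 2.06 and 0.83 with Fhl1 and 0.17, 1.08, 0.69 and 0.21 with Ifh1, a difference of -0.89 (SE 0.41). Its groups overlap, since the highest Ifh1 value exceeds the lowest Fhl1 value. RPL21A was at -0.82 (SE 0.38), RPL37A at -0.67 (SE 0.31) and RPL19B at -0.97 (SE 0.48), each with a limma adjusted p of 1.0. The test of the difference between the rapamycin effects on Ifh1 and on Fhl1 called 0 of 46 members and 0% of all probes. Its estimates were below 0 for 43 of 46 members, with a median of -0.70, and 7 had an unadjusted p under 0.05, against 2.28% of all probes. RPL41A led them at -2.31 (SE 0.65, limma adjusted p = 0.98), with the Ifh1 rapamycin arrays as turned here. RPL33B followed at -1.45 (SE 0.54), RPL27A at -1.58 (SE 0.62), RPL20B at -1.66 (SE 0.68) and RPL17B at -1.29 (SE 0.56), each with a limma adjusted p of 0.98.

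The other RP genes were measured in the same fits. On the mean of 3 groups 23 of 34 probes of the other large-subunit genes, 30 of 46 of the duplicated small-subunit genes and 3 of 8 of the single small-subunit genes were called, with medians of 1.08, 0.89 and 0.71 against 1.14 for the members. Outside RP promoters 5 of 5673 intergenic probes were called higher and 4 lower. These RP sets set the side of each array, so their sign is no independent measure. For the rapamycin effect on Ifh1, as turned here, the medians were -0.87, -0.81 and -0.55 in the same order, against -0.79 for the members.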

How the data were processed

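Per the labels, DNA of each precipitate was amplified from ligated linkers, carried Cy3 or Cy5, and was scanned with GenePix Pro on a GenePix 4000A scanner. The deposited table gives log2 ratios of 6803 probes on 15 arrays, not centred. Background correction, filters and ratio direction were not stated in any label or header. Here each array was centred on its median and turned on 88 promoter probes of RP genes that are not members, with no loess or quantile step. Of 5574 reading frames that name probes, 5307 matched RefSeq locus tags (assembly R64), and the RPL8B and RPL37A probes, named after unmatched frames, were placed by frame number. Group means and differences were fitted over all probes with limma 3.58.1 in R 4.3.3, two-sided, and the fit was tested on simulated data.

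The members and lists were chosen with earlier results of these data known. Full statistics were given for the 8 highest and 8 lowest probes by the mean of 3 groups, the 5 pairs with the largest and 3 with the smallest mean A minus B difference, and the 5 lowest p-values of each difference between groups. The value of RPL43B is the mean of its 2 probes, except where its probes are given apart. Alternatives changed the side of the arrays, centring, scale, probes tested, arrays fitted, blocks (replicate number, array clusters) and array weights.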

Additional observations from a re-analysis of the deposited data

Results flagged for a closer look

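Of 70 checks for a sample far from the rest of its group, 2 passed Dixon's critical value, and chance alone passes about 1 in 20. The RPL40A promoter read 2.50 on Fhl1 rapamycin replicate 1, against 0.63 to 0.90 on the other 4 arrays of the group. The RPL34B promoter read 2.52 on Ifh1 untreated replicate 1, against 1.62 to 1.76 on the other 3.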

How the results depend on the processing

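The member counts depend on the side given to the arrays. With signs as deposited, which averages arrays of opposite sides, 0 members were called with Fhl1 untreated, Fhl1 rapamycin, Ifh1 untreated and on the mean of 3 groups, and the member medians were -0.12, -0.19 and -0.031 for the first 3. Among the members called in the fit reported, the estimates that turned negative under deposited signs were, for 13 of 15 with Fhl1 untreated, RPL17A at -0.40, RPL19B at -0.65, RPL20B at -0.52, RPL21A at -0.55, RPL22A at -0.51, RPL23B at -0.67, RPL27B at -0.035, RPL31A at -0.58, RPL31B at -0.42, RPL33B at -0.47, RPL37A at -0.52, RPL40A at -0.35 and RPL41B at -0.83. With Fhl1 rapamycin 17 of 21 turned: RPL6A at -0.46, RPL6B at -0.079, RPL14A at -0.46, RPL14B at -0.052, RPL17A at -0.0012, RPL19B at -0.022, RPL20B at -0.35, RPL21A at -0.35 and RPL22A at -0.31. The rest of the 17 were RPL23B at -0.082, RPL27A at -0.18, RPL27B at -0.27, RPL31A at -0.42, RPL33B at -0.37, RPL34B at -0.21, RPL37A at -0.0021 and RPL41B at -0.20. With Ifh1 untreated 4 of 10 turned: RPL17A at -0.39, RPL20B at -0.20, RPL27A at -0.26 and RPL34B at -0.21. On the mean of 3 groups 27 of 32 turned: RPL6A at -0.029, RPL8A at -0.14, RPL9A at -0.13, RPL11A at -0.29, RPL14A at -0.067, RPL14B at -0.18, RPL15A at -0.18, RPL17A at -0.26 and RPL17B at -0.14. They were also RPL19A at -0.12, RPL19B at -0.40, RPL20B at -0.36, RPL21A at -0.28, RPL22A at -0.24, RPL23A at -0.0095, RPL23B at -0.35, RPL26B at -0.059 and RPL27A at -0.13. The rest of the 27 were RPL27B at -0.20, RPL31A at -0.23, RPL33A at -0.12, RPL33B at -0.28, RPL34A at -0.28, RPL34B at -0.26, RPL37A at -0.19, RPL40A at -0.39 and RPL41B at -0.55. Members that were not called are not listed here. Without centring 0 members were called in each of the 3 groups, 25 on their mean, and the medians were 1.34 for Ifh1 untreated and 0.80 for Ifh1 rapamycin. With only the arrays compared in the fit, which leaves fewer samples, 0 were called with Fhl1 untreated and with Ifh1 untreated.

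Replicate numbers were not taken as pairs, since no label ties them to a shared culture or day and the deviations of same-numbered arrays correlated between -0.23 and 0.38. Of 14 arrays, 9 correlated best with their own number, which is a hint from the data and not from the design. Both readings include the Ifh1 rapamycin arrays as turned here, and the sign of their correlations changes with a side that is not settled. With the replicate number as a block 2 members were called with Fhl1 untreated, 0 with Ifh1 untreated, 22 with Fhl1 rapamycin and 29 on the mean of 3 groups. For Ifh1 minus Fhl1 under rapamycin the count was 4, 4, 2, 2 and 1 for 5 ways of turning the Ifh1 rapamycin arrays, 2 with array weights and 0 in the fit reported. The cause was not tested.

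Leaving out 1 array gave 2 to 16 calls for Fhl1 untreated, 13 to 23 for Fhl1 rapamycin, 1 to 13 for Ifh1 untreated, 0 to 1 for Ifh1 minus Fhl1 rapamycin and 30 to 33 for the mean of 3 groups. Outside deposited signs the mean of 3 groups gave 25 to 34 calls. The A with B correlation of an array cannot change with its side, centring or scale, so those alternatives do not test it. With 1 array left out its mean lay between -0.06 and 0.17 for Fhl1 untreated and -0.04 and 0.07 for Fhl1 rapamycin. For Ifh1 untreated that mean lay between 0.11 and 0.16, and for Ifh1 rapamycin between 0.27 and 0.46. No other difference between groups called a member under any alternative. With 3 to 5 arrays a group, the number of arrays limits each of these tests.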
